A study of Homo sapiens with 4 samples.

Results

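The genes described here are 9 through which T cells enter, stay in and leave tissues, taken as a named list: the chemokine receptors CXCR4, CCR7, CCR9 and CCR4, the egress receptor S1PR1, the transcription factor KLF2, and the integrin chains ITGA4, ITGAL and ITGB7. Every ETS1 or RUNX1 peak inside one of these genes, or within 50 kb of its RefSeq bounds in genome build hg38, was assigned to it, whatever other gene lay nearer. The windows held 175 of the 62068 peaks listed over 4 libraries. The study mapped both transcription factors by CUT&Tag, in which an antibody directs a transposase to the chromatin around its target, in 6T-CEM, a human leukaemia line of the T lineage (T-ALL, T-cell acute lymphoblastic leukaemia). ETS1 was mapped with a Santa Cruz antibody (sc-55581) and RUNX1 with an Abcam antibody (ab272456), in 2 libraries each, and the authors called peaks in each library against IgG. The labels name no treatment, mutation or knockdown, and all values come from this 1 cell line. They do not say that libraries of an antibody came from separate cultures, so each SD below is the spread between libraries, which may be technical.

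Chemokine receptors are G protein-coupled receptors that steer a T cell along a gradient of their ligand and, through integrins, make it stop on the vessel wall. CXCR4 reads CXCL12 and holds cells in bone marrow, CCR7 reads CCL19 and CCL21 and brings cells into lymph nodes, CCR9 reads CCL25 of thymus and gut, and CCR4 reads CCL17 and CCL22 and is used for skin. S1PR1 senses sphingosine 1-phosphate, which is high in blood and lymph, and is needed for T cells to leave thymus and lymph nodes. KLF2 is the factor that switches on S1PR1 and L-selectin in mature and naive T cells. ITGA4 pairs with ITGB7 into the gut-homing integrin that binds MADCAM1, and ITGAL pairs with ITGB2 into LFA-1, the receptor of the ICAM proteins. RUNX1 and ETS1 are DNA-binding factors of the T lineage that bind side by side at many of its regulatory elements. Peak lists show where a factor was detected on chromatin and hold no expression values.

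The lists held 6082 and 5625 ETS1 peaks and 25360 and 25001 RUNX1 peaks. Total reads are not in the lists, so sequencing depth is unknown. The pileup, the reads or fragments stacked at a peak's summit, was recovered from the deposited values and reflects enrichment as well as depth; its median was 54 and 51 for ETS1 and 75 and 71 for RUNX1. A region here is the merged extent of touching or overlapping peaks that holds a peak of both libraries of an antibody, which gave 5055 ETS1 and 22802 RUNX1 regions in all. The fold of a region in a library is the authors' enrichment over IgG at its strongest peak. The windows of the 9 genes held 17 and 17 ETS1 peaks and 72 and 69 RUNX1 peaks. The means were 17 ± 0 and 70.5 ± 2.12 (SD, n = 2), a difference of 53.5 peaks, with every RUNX1 library above every ETS1 library. The exact two-sided permutation test over libraries gave p = 0.33, the smallest that 2 against 2 libraries allow. Factor, antibody and list length cannot be told apart in this difference. As shares of the whole lists, the windows held 0.263% of all RUNX1 regions and 0.297% of all ETS1 regions.

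RUNX1 was found at the start of 7 of the 9 genes in both libraries and ETS1 at the start of 1, ITGA4. A region counted as at the start when it reached within 1000 bp of a transcription start listed in RefSeq, or of either outer end of the gene for CCR7 and ITGAL. Over 19821 protein-coding genes, 47.2% had a RUNX1 region at the start and 19.0% an ETS1 region. Counting a peak of either library, RUNX1 was at the start of 9 of 9 genes, against 50.4% of all genes, and ETS1 at the start of 2 of 9, against 23.1%. The genes added by that count were CCR4 and CCR9 for RUNX1 and CCR7 for ETS1. RUNX1 folds at the start fell in separate ranges: ITGA4, CCR7, ITGAL and CXCR4 had mean folds of 34.2, 28.1, 21.3 and 17.3, and S1PR1, KLF2 and ITGB7 had 5.59, 4.79 and 4.43. The median over the 9364 genes with a RUNX1 region at the start was 8.47. In that order, the libraries of KLF2 and ITGB7 overlapped and those of the other neighbours did not, though CCR7, with an SD of 6.97, differed from ITGA4 and from ITGAL by less than its own spread.

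**Figure D1:**
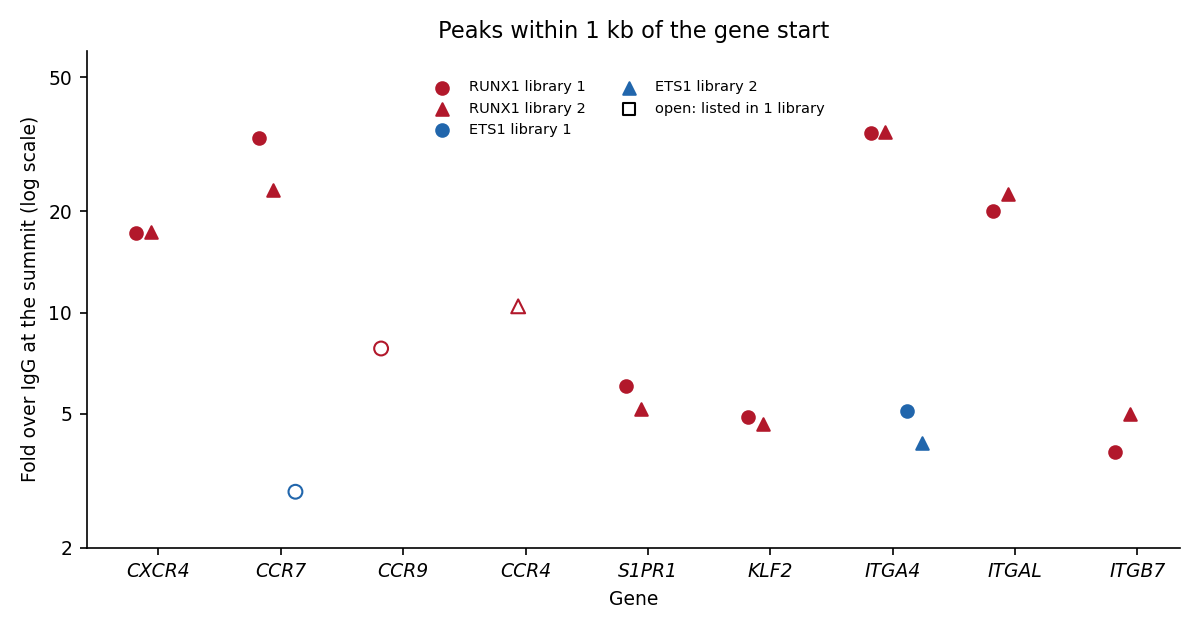
RUNX1 and ETS1 fold over IgG (log axis) at the start of each of the 9 genes, 1 point per library; open symbols mark a peak listed in 1 library only. RUNX1 points of CXCR4, CCR7, ITGA4 and ITGAL lie between 17.2 and 34.3, those of S1PR1, KLF2 and ITGB7 between 3.85 and 6.03, and ITGA4 is the gene with ETS1 points of both libraries.

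The promoters in which a summit fell inside, or within 50 bp of, the window from 250 bases before to 50 after the start are shown so that the peak positions below can be read against the bases. They are the 250 bases before the start from RefSeq (hg38), 5′ to 3′ on the gene's strand. Capitals mark GGAAG, the word taken here for ETS sites, and TGTGGT or TGCGGT, taken for RUNX sites, searched on both strands. Shorter or variant forms of these sites were not searched and are not marked.
ITGA4, chr2:181457136-181457385, plus strand: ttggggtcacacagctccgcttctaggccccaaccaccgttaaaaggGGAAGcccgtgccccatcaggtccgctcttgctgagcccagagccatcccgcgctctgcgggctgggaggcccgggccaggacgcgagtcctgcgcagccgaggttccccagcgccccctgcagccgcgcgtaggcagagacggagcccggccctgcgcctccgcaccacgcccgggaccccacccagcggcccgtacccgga
KLF2, chr19:16324576-16324825, plus strand: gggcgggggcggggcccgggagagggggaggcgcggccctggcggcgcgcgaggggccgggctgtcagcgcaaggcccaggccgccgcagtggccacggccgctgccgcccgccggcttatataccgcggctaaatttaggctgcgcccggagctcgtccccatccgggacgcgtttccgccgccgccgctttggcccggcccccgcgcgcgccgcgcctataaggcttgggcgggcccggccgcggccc
ITGB7, chr12:53207252-53207501, minus strand: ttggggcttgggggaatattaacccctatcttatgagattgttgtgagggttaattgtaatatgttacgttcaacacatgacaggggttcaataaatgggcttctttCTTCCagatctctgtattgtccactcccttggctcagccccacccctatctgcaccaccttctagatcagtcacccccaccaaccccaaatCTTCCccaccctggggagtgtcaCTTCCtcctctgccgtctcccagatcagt
CCR4, chr3:32951394-32951643, plus strand: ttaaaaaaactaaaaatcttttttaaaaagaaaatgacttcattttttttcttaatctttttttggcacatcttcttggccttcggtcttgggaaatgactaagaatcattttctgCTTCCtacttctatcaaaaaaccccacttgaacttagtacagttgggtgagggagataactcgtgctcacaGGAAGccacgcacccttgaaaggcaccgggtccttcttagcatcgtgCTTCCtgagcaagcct
The search found 1 GGAAG in the ITGA4 window, 3 in ITGB7 and 3 in CCR4, and none in the KLF2 window. None of these 4 windows held TGTGGT or TGCGGT. Of the 10 starts listed for 7 of the 9 genes, 7 had GGAAG and 1, the second start of CXCR4, had TGCGGT, in the 250 bases before them; of 35116 promoters in the table, 65.1% and 16.3% had the corresponding letters. GGAAG and the RUNX words share no bases in any match, a match is a run of letters and not a mapped site, and sequence under the distal regions was not analysed here.

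CXCR4 (chromosome 2, 136114349 to 136118149, minus strand) carried RUNX1 over its start and no ETS1 peak of either library anywhere in its window. Its main RUNX1 region, 136116280 to 136118649, took in the bases just before its 3 listed starts, in part for the third, and had folds of 17.2 and 17.4 (mean 17.3 ± 0.0979, n = 2), at pileups of 340 and 326. The summit lay on the same base in both libraries, inside the gene, 701 bp downstream of the nearest listed start. The IgG expectation there, the background against which the peak was called, was 18.8 and 17.8 reads, higher than in 91.0% of RUNX1 regions, so that 94.1% of regions had a lower pileup but 82.4% a lower fold. A second region, 1.21 kb upstream of the gene, had folds of 5.54 and 4.65. The remaining regions lay outside genes, 13.3 kb upstream with folds of 6.43 and 6.80 and 18.1 kb upstream with 10.8 and 12.9. CXCR4 was 1 of 2 genes, with ITGA4, whose strongest RUNX1 region was the one at the start.

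CCR7 (chromosome 17, 40553769 to 40565472) had 10 RUNX1 regions, 8.95 per 100 kb of window, a density above that of 95.2% of protein-coding genes. The region at its upper end, 40563100 to 40565896, had folds of 33.0 and 23.2 (mean 28.1 ± 6.97, n = 2), the widest spread between libraries of any member's start; the pileups were 356 and 326 over an IgG expectation of 9.80 and 13.1, at summits 161 bp apart. Inside the gene, 2 more RUNX1 regions had folds of 20.2 and 21.6 and of 14.6 and 17.2. The strongest region lay outside genes, 12.3 kb below the lower end (40539552 to 40544065), with folds of 43.9 and 43.8, 1.56 times the mean at the upper end and above both of its libraries. Pileups in this strongest region were 406 and 387. Its IgG expectation, 8.27 and 7.86, was lower than at the upper end, so the pileups differed less than the folds. ETS1 was found inside that region, with folds of 4.11 and 4.15. Some 37 kb below the gene, a pair of neighbouring RUNX1 regions had mean folds of 18.7 (40514973 to 40516546, outside genes) and 17.0 (40516853 to 40517523, in the lncRNA gene LOC105371773). Both held ETS1, at 6.07 and 5.19 and at 6.96 and 5.15. At the upper end of CCR7 itself ETS1 was listed in library 1 only, with fold 2.94 and a −log10 q of 6.07, near the lowest listed in that library (5.02).

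CCR9 (chromosome 3, 45886064 to 45903174, plus strand) lies within the bounds of LZTFL1, a gene of ciliary trafficking, and its 10 RUNX1 regions were all away from its 2 listed starts. At the second start, library 1 alone listed RUNX1, 930 bp upstream, with fold 7.82, pileup 23 and −log10 q 14.7. The strongest region of all 9 windows lay 16.4 kb upstream of the nearest CCR9 start, at 45869059 to 45870544. Its RUNX1 folds were 85.5 and 90.5 (mean 88.0 ± 3.57, n = 2), above 99.6% of RUNX1 regions, and its ETS1 folds 10.2 and 10.3, with the summits of the antibodies 12 bp apart. The IgG expectation there was low, 3.45 and 3.28 reads, below that of all but 6.70% of RUNX1 regions, and the pileups of 379 and 386 exceeded those of 95.5%. A second shared region 5.07 kb upstream of the start (45881202 to 45881862) had RUNX1 folds of 33.3 and 36.2 and ETS1 folds of 5.32 and 5.46. The third, at the upper end of LZTFL1 (45914313 to 45917629), had RUNX1 folds of 65.7 and 68.7 and ETS1 folds of 10.1 and 10.8. Between those upstream regions, a RUNX1 region without ETS1 had folds of 24.8 and 21.9. Farther out, 13.7 and 18.2 were measured at the chemokine receptor gene CXCR6, which shares the window, and the other 5 regions, in LZTFL1 and FYCO1, had mean folds of 3.39 to 8.54.

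CCR4 (chromosome 3, 32951644 to 32956349, plus strand) had no region of either factor in both libraries, and 24.7% of protein-coding genes had no RUNX1 region in their window. RUNX1 library 2 alone listed a peak over the start, at 32951549 to 32951898, with fold 10.4, a pileup of 71 over an IgG expectation of 5.90, and −log10 q 48.1. Its summit was 90 bp downstream of the start, and the nearest RUNX1 summit of library 1 was 55.3 kb away. Such a gap between libraries was rare: of 10375 peaks of library 2 with at least that −log10 q, 5 (0.0482%) had no overlapping peak in library 1. A weaker peak of library 2 lay in GLB1, 25.8 kb downstream of the start, with fold 7.34. RUNX1 at CCR4 rests on 1 library, and the cause of the difference was not tested.

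S1PR1 (chromosome 1, 101236899 to 101242313, plus strand) had 3 RUNX1 regions, all at or inside the gene and all of low fold, and no ETS1 peak in its window. The region at the start, 101235809 to 101237087, had folds of 6.03 and 5.16 (mean 5.59 ± 0.620, n = 2), and 24.0% of genes with RUNX1 at the start had a lower fold. The regions inside the gene had folds of 5.40 and 6.22, and of 6.43 and 6.96. The last was the strongest in the window, 1.20 times the fold at the start. Its pileups of 103 and 88 exceeded those of 58.8% of RUNX1 regions, and its IgG expectation was higher than in 77.5%. The mean folds of all 3, 5.59 to 6.70, were below the median of all RUNX1 regions, 8.20.

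KLF2 (chromosome 19, 16324826 to 16328685, plus strand) combined weak RUNX1 at its start with 1 of the strongest regions of the windows at a distance. At the start, 16324493 to 16325147, the folds were 4.91 and 4.68 (mean 4.79 ± 0.167, n = 2), with summits 132.5 bp upstream of it, inside the KLF2 sequence printed above. The pileups of 75 and 68 were near the library medians, and the IgG expectation, 14.5 and 13.8 reads, exceeded that of 79.4% of RUNX1 regions. In the lncRNA gene KLF2-DT on its upstream side, 3 RUNX1 regions had mean folds of 10.1, 5.16 and 11.9. The strongest region lay 46.8 kb downstream, inside EPS15L1, an endocytic adaptor gene, at 16368694 to 16374839. Its folds were 83.6 and 84.2 (mean 83.9 ± 0.424, n = 2), 17.5 times the mean at the start, at pileups of 659 and 635. The IgG expectation in this region was 6.89 and 6.55 reads, lower than at the start, so the pileups differed less than the folds. At 6146 bp the region was wider than all but 0.491% of RUNX1 regions. ETS1 was found there with folds of 9.63 and 9.44, its summit 1 bp from that of RUNX1, and nowhere else in the window in both libraries. Whether the region acts on KLF2, on EPS15L1 or on another gene was not tested.

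ITGA4 (chromosome 2, 181457205 to 181538940, plus strand) was the gene with both factors at its start and with no other region in its window. RUNX1 had folds of 34.1 and 34.3 (mean 34.2 ± 0.166, n = 2) at 181456229 to 181458360, and 96.0% of genes with RUNX1 at the start had a lower fold. The RUNX1 pileups, 667 and 640, exceeded those of 98.7% of RUNX1 regions, over an IgG expectation of 18.6 and 17.7. ETS1 had folds of 5.10 and 4.10 (mean 4.60 ± 0.709, n = 2), below the median of 5.87 over the 3767 genes with ETS1 at the start. Its pileups of 76 and 69 were above the library medians, but the IgG expectation of 14.1 and 16.1 was higher than in 84.8% of ETS1 regions. The mean summits of the factors were 0.5 bp apart, about 280 bp upstream of the start, just outside the printed bases; the ETS1 summits of the libraries were 70 bp apart, and that of library 2 fell nearer the start. Over all 4 libraries, the genes whose folds at the start were nearest to those of ITGA4 were SKIL, PPIA and PRRC2B, at log2 distances of 0.245, 0.252 and 0.280 (Euclidean, over libraries) among 3698 other genes with both factors there. SKIL had ETS1 folds of 4.62 and 4.26 and RUNX1 folds of 36.9 and 30.9.

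ITGAL (chromosome 16, 30472742 to 30523185) had RUNX1 at its lower end, and a stronger region 13.8 kb below it. At the lower end, 30472473 to 30473926, RUNX1 had folds of 20.1 and 22.6 (mean 21.3 ± 1.75, n = 2), at pileups of 116 and 125 over an IgG expectation of 4.83 and 4.59. The stronger region, 30456622 to 30459810 outside genes, had folds of 69.3 and 77.7 (mean 73.5 ± 5.99, n = 2), 3.45 times those at the end of the gene, and pileups of 689 and 637, above those of 98.7% of RUNX1 regions. The IgG expectation in this stronger region was 8.96 and 7.21, higher than at the lower end. ETS1 lay within the stronger region with folds of 5.11 and 5.81, the summits 2.5 bp apart. ITGAL had 5 ETS1 regions in its window, the most of the 9 genes, but the other 4 lay at or in other genes: DCTPP1, which encodes a nucleotide pyrophosphatase, and the zinc finger genes ZNF768, ZNF747 and ZNF688. The ETS1 folds were 10.8 and 11.1 in ZNF768 and means of 3.41 to 5.07 at the other 3. Inside ITGAL, 1 RUNX1 region had folds of 9.86 and 10.6.

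ITGB7 (chromosome 12, 53191323 to 53207251, minus strand) had the most RUNX1 regions, 12, or 10.4 per 100 kb of window. Its RUNX1 region within 1000 bp of the start was the weakest among the genes with a region there. The folds there were 3.85 and 5.01 (mean 4.43 ± 0.823, n = 2), with summits 35.5 bp downstream of the start. A region 2.06 kb upstream, 53208564 to 53209775, had folds of 33.3 and 33.4 (mean 33.4 ± 0.0676, n = 2), 7.53 times higher, with no ETS1 peak. It was the strongest RUNX1 region without ETS1 in the 9 windows. With the wider limit of 2500 bp in place of 1000 bp, it would count as at the start of ITGB7. ETS1 was found in 2 places: at the ends of CSAD and ZNF740, 10.5 kb beyond the far end of ITGB7, with folds of 8.69 and 7.53 beside RUNX1 folds of 30.0 and 24.3, and in RARG, the retinoic acid receptor gamma gene, with folds of 4.18 and 4.27. In RARG the RUNX1 region had folds of 24.8 and 29.6, and its summit lay 1530 bp from that of ETS1. The next RUNX1 region in RARG, 53222959 to 53224376, was the least reproducible of the 60, with folds of 12.0 and 5.04 at summits 774 bp apart.

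Over all windows, 60 RUNX1 and 15 ETS1 regions were found. RUNX1 lay in the window of 8 of the 9 genes, against 75.3% of protein-coding genes, and ETS1 in that of 6, against 40.6%. Density was compared per length of window: the median over the 9 genes was 7.31 RUNX1 regions per 100 kb, the mean over all protein-coding genes 2.41 and the median 1.30. The densities divided the genes: CCR7, CCR9, KLF2, ITGAL and ITGB7 had 7.31 to 10.4 per 100 kb, and CXCR4, S1PR1, ITGA4 and CCR4 had 3.85, 2.85, 0.550 and 0. The 24 RUNX1 regions of the integrins came almost entirely from ITGAL and ITGB7, whose windows hold several other genes. Of the 60 RUNX1 regions, 8 were at a member's start, 7 elsewhere inside a member, 6 at an end and 20 inside another protein-coding gene, 6 in lncRNA genes and 13 outside genes. Of the 15 ETS1 regions, 1 was at a member's start and none was elsewhere inside a member. The strongest RUNX1 region was distal in 6 of the 8 genes with any, a share like that over all protein-coding genes with a RUNX1 region in their window, 75.1%. This count depends on the limit of 1000 bp. In S1PR1 and ITGB7 the strongest region lay 2.44 and 2.06 kb from the start. With the limit of 2500 bp, both would count as at the start, and the share over all genes at that limit is not given here. The libraries at the start and at the strongest distal region did not overlap in any of the 6 genes that had both, and in 92.1% of all such genes.

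**Figure D2:**
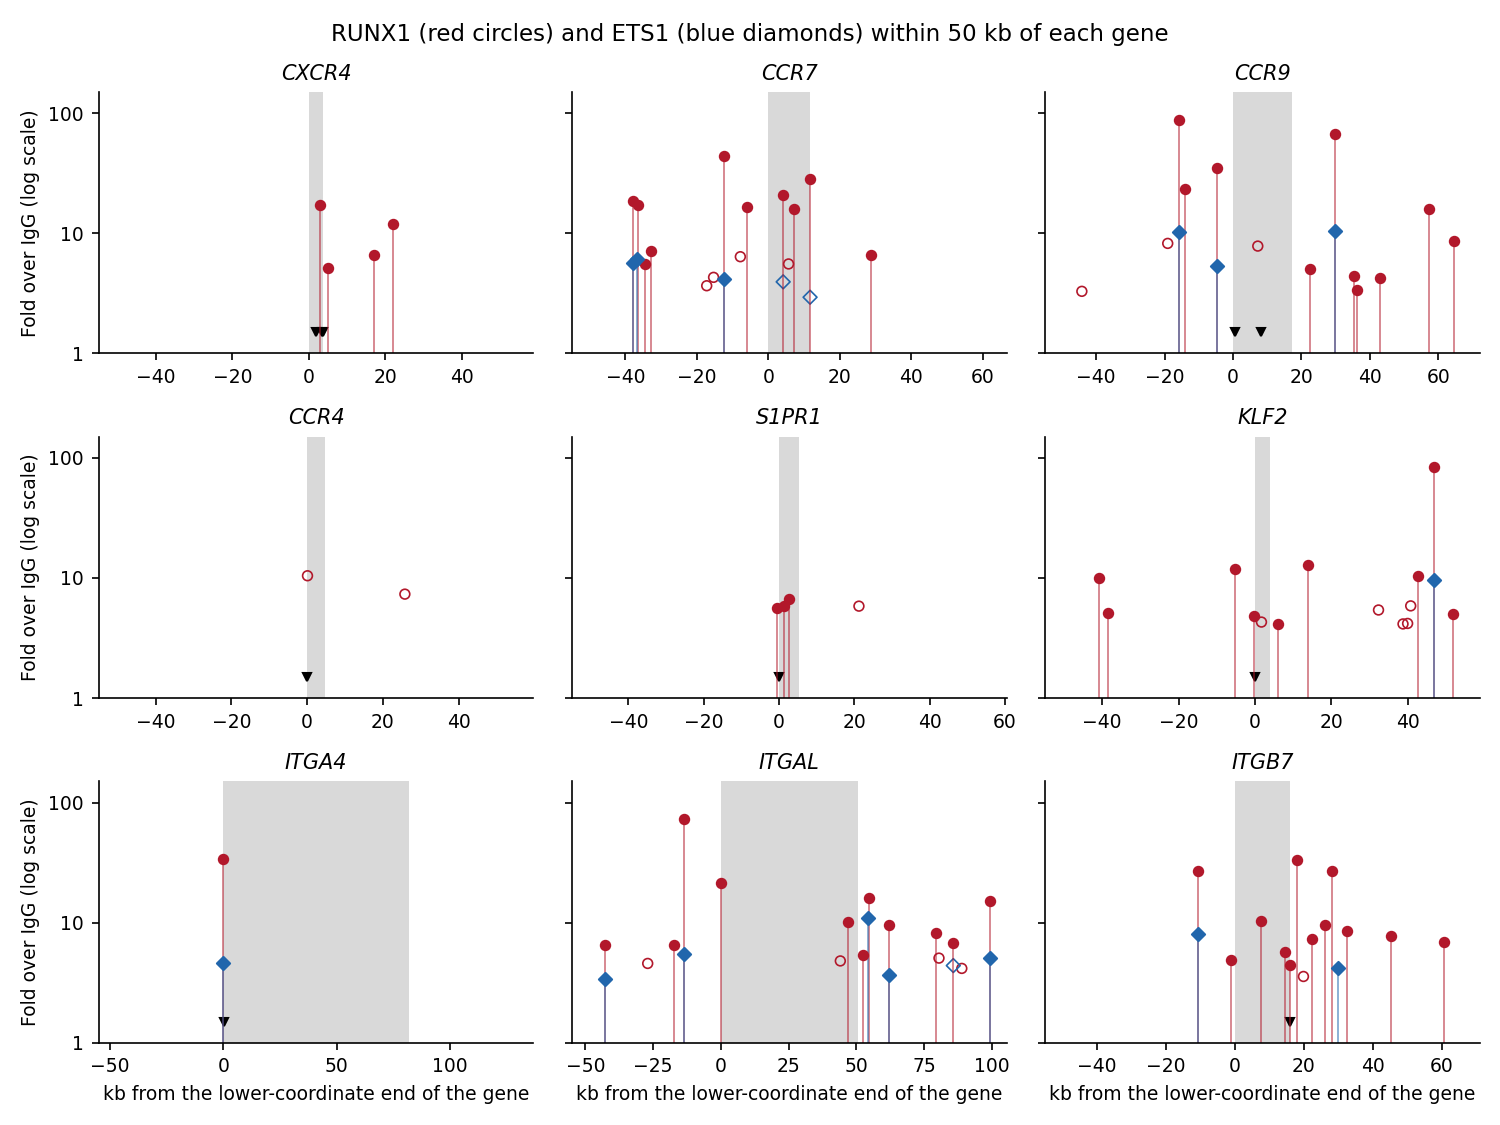
Regions in the window of each of the 9 genes; the horizontal axis is distance in kb from the gene's lower-coordinate end, the height of each stem the mean fold over IgG (log axis), grey bars the genes and triangles the listed starts; red circles mark RUNX1, blue diamonds ETS1, and open symbols peaks of 1 library. The tall stems of CCR9 (88.0 and 67.2), KLF2 (83.9) and ITGAL (73.5) stand outside the genes, while ITGA4 has its 1 region of each factor at the start and CCR4 has open symbols only.

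**Figure D3:**
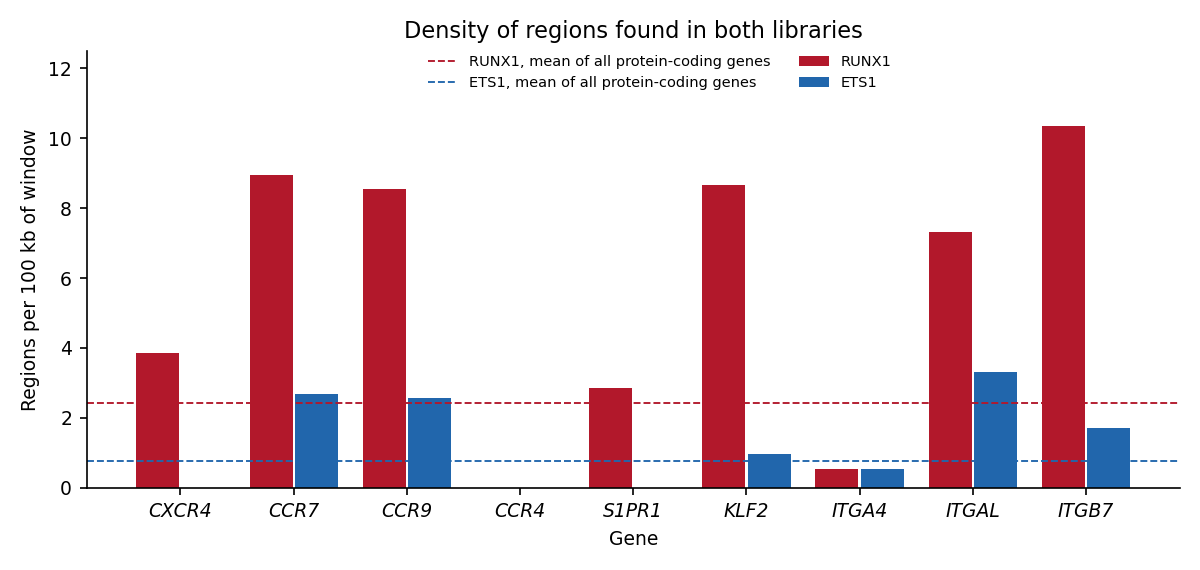
RUNX1 and ETS1 regions per 100 kb of window for each of the 9 genes; dashed lines give the means over all protein-coding genes, 2.41 for RUNX1 and 0.767 for ETS1. RUNX1 ranges from 0 at CCR4 to 10.4 at ITGB7, and S1PR1 (2.85) is the gene nearest above the dashed RUNX1 line.

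In the windows, ETS1 lay on RUNX1 regions, more often on the stronger ones. All 15 ETS1 regions overlapped a RUNX1 region (95% Wilson interval 79.6% to 100%, counting error only), against 98.0% of all ETS1 regions. Of the 60 RUNX1 regions, 15 held ETS1 (25%, 15.8% to 37.2%), against 20.6% of all RUNX1 regions. The intervals take regions as independent, which neighbours in a window need not be, so no difference from the whole lists is read from them. The RUNX1 regions with ETS1 had a median fold of 27.2 (6.49 to 88.0) and a median width of 1574 bp; those without had 7.18 (3.39 to 33.4) and 922 bp. The medians were 30.0 and 29.6 in libraries 1 and 2 with ETS1, and 7.57 and 7.30 without. The pileup differed more than the IgG expectation: its medians were 228 and 203 with ETS1 and 53 and 54 without, while the IgG expectation was 8.27 and 7.21 against 6.20 and 5.90. Over all RUNX1 regions the medians were 14.8 with ETS1 and 7.22 without, so the same order held in the whole list. Of the 14 regions of the windows with at least 20-fold RUNX1, 9 held ETS1, against 50.3% in the whole list, and of the 46 below, 6 (13.0%), against 15.8%. The summits of the factors were a median of 28.5 bp apart (0.5 to 1530), within 100 bp in 11 of 15 regions. The same distances over the whole list are not given here, so the closeness is not read as particular to these genes.

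**Figure D4:**
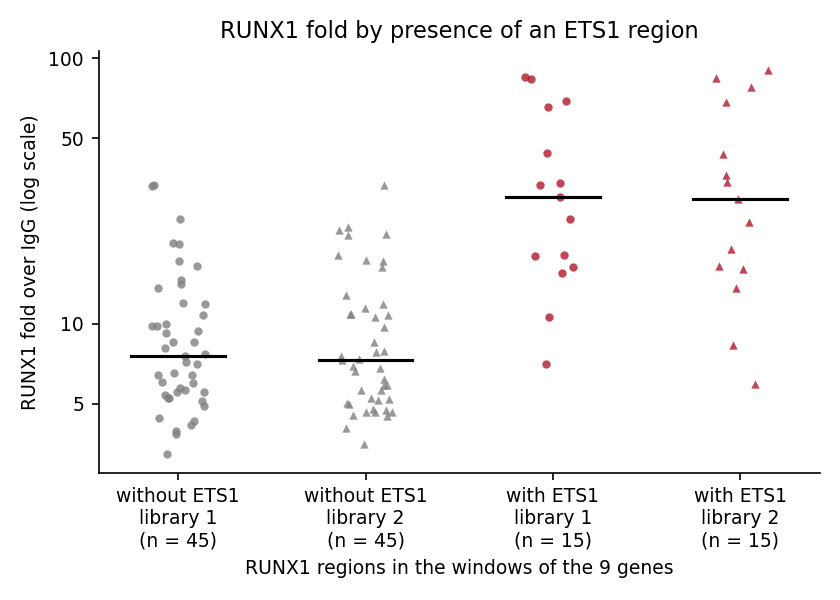
RUNX1 fold over IgG (log axis) of the 15 regions with and the 45 regions without an ETS1 region, in each library; points are regions and black lines medians. The medians are 30.0 and 29.6 with ETS1 and 7.57 and 7.30 without, and the ranges overlap between 6.49 and 33.4 in mean fold.

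The libraries of an antibody gave similar folds in the windows. The ratio of library 2 to library 1 ran from 0.422 to 1.33 over the RUNX1 regions, with a median of 1.01, and from 0.740 to 1.14 over the ETS1 regions. It lay within a factor of 1.5 in 59 of 60 RUNX1 and 15 of 15 ETS1 regions (97.6% and 98.1% in the whole lists), the exception being the region in RARG. A further 23 peaks were listed in 1 library only, 11 and 9 of RUNX1 and 2 and 1 of ETS1, with folds from 2.94 to 10.4. The highest of these was the peak at the start of CCR4.

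A further 75 genes were taken in 6 lists, 5 of trafficking and 1 of KLF2 regulators and relatives. The lists were chosen with earlier results of these data known, so no excess over all genes is read from their shares. Of the 75, 47 (62.7%) had RUNX1 at the start and 19 (25.3%) ETS1, against 47.2% and 19.0% of all protein-coding genes. All 19 also had RUNX1, as did 98.2% of all genes with ETS1 at the start. Of 15 other chemokine receptors, 5 had RUNX1 and 1 had ETS1: CCR10, a receptor of skin homing, had RUNX1 at a mean of 31.2 and ETS1 at 9.26, and CXCR3 and CXCR6 had RUNX1 at 21.4 and 15.9. Of 6 ligands of the member receptors, which other cells secrete in the main, 1 had RUNX1, CCL17 at 9.19, and none had ETS1. Of 11 genes of sphingosine 1-phosphate signalling, 9 had RUNX1, at a median of 4.42, against 8.47 over all genes with RUNX1 there, and 2 (18.2%) had ETS1, a share near that of all genes. These were the lymphocyte receptor S1PR4, with RUNX1 at 19.3 and ETS1 at 11.6, and the kinase SPHK2, with 8.80 and 6.01; the exporter SPNS2 had RUNX1 at 16.3.

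Of 16 selectins, other integrins and their ligands, 11 (68.8%) had RUNX1 and 3 (18.8%) had ETS1, against 47.2% and 19.0% of all genes. SELPLG, the selectin ligand, had RUNX1 at 17.7. Those with ETS1 were the LFA-1 ligands ICAM1, ICAM2 and ICAM3, with RUNX1 at 27.3, 20.9 and 15.4. ETS1 at ICAM3 reached 26.7 in both libraries, while ICAM1 and ICAM2 had ETS1 at 5.23 and 6.22. ITGB2, the partner of ITGAL, had RUNX1 at 15.1, and MADCAM1, the ligand of ITGA4 with ITGB7, at 6.22. Of 15 genes of integrin activation and migration, 13 (86.7%) had RUNX1 and 10 (66.7%) had ETS1. The folds were highest for RUNX1 at ARRB2, a receptor-desensitising arrestin (40.3, with ETS1 at 9.01), the GTPase RAC2 (27.4 and 6.83) and the receptor kinase GRK2 (22.8 and 7.31). The others with both factors were TLN1, FERMT3, RASSF5, CORO1A, DOCK2, RHOH and GNAI2. Of 12 regulators and relatives of KLF2, 8 had RUNX1 and 3 had ETS1: KLF13 (61.5 and 10.4), KLF10 (38.3 and 4.45) and MAPK7 (13.4 and 4.39). KLF2 itself, at 4.79, had a lower RUNX1 fold at its start than each of these.

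These counts depend on list length and on the call threshold. When each list was cut to its 5611 strongest peaks, 4 of the 9 genes had RUNX1 at the start, against 13.3% of protein-coding genes, and the windows held 18 RUNX1 regions, of which 61.1% held ETS1, against 49.6% of all RUNX1 regions at that length. At a −log10 q of at least 20 in both libraries, no member had ETS1 at the start, against 10.6% of protein-coding genes, and 5 ETS1 regions were left in the windows. The ETS1 region at the start of ITGA4 had a −log10 q of 27.1 in library 1 and 19.0 in library 2, just under that limit.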

How the data were processed

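Per the submitters' processing notes, the tools were bcl2fastq 2.17, MACS3 3.0.0a6 and Bowtie2, without a version, and the build was hg38. Each list holds the peaks of 1 library called by the authors against IgG, per the labels; of caller thresholds and read filters nothing is stated in these sources. The deposited lists give, for each peak, the fold enrichment over IgG (a ratio), −log10 p and −log10 q, a summit position and a score, which was not used. Fold values are the authors' own and were used only to describe and rank peaks. From each deposited fold and −log10 p, whole-number pileup and IgG expectation were solved (100% of peaks within 0.01, or 5e-05 relative, of −log10 p), as tested on simulated data.

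The autosomes, 1 to 22, and X were kept. Touching or overlapping peaks of the libraries of an antibody were merged, and regions of the 2 antibodies were shared at 1 bp of overlap. Starts came from the RefSeq promoter table (hg38), which lists 15812 of 19821 protein-coding genes, and otherwise from both outer ends; 153 genes on scaffolds were left out. All 9 genes are named, with other genes where a region lies at or in them; from the 6 lists, those with ETS1 at the start and the 3 with the highest RUNX1 fold are named, and ITGB2 and MADCAM1, partners of the members, were added after their values were seen. Genes most like ITGA4 were ranked by Euclidean distance of log2 fold over 4 libraries. Members and lists were chosen with earlier results of these data known. Alternatives were a stricter threshold, single libraries, equal list lengths, other windows and other overlap rules. Python 3.11.15, pandas 2.3.3, numpy 2.4.6, scipy 1.17.1 and matplotlib 3.10.9 were used.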

Additional observations from a re-analysis of the deposited data

How the results depend on the processing

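Of the alternative values of the main results, 31 kept to the value reported (within 1.5 times for counts, within the Wilson interval for shares, and in direction and side of the threshold for the tested difference in peaks per library) and 11 did not; 16 single-library folds at starts lay within 1 SD of the mean, as they must with 2 libraries. At a −log10 q of at least 20, ETS1 was at the start of 0 members, ETS1 regions numbered 5, and 11.1% of RUNX1 regions held ETS1. With 5611 peaks per library, RUNX1 was at the start of 4 members, RUNX1 regions numbered 18, and 61.1% held ETS1. With 10 kb either side in place of 50 kb, 29 RUNX1 and 3 ETS1 regions were left, and the difference in peaks per library, tested at the same p, was 28.5 in place of 53.5. A reciprocal overlap of 50% lowered the shared part to 13.3%. The share over all RUNX1 regions is not given for that rule or for a −log10 q of at least 20. The 13.3% and 11.1% therefore cannot be set against the 20.6% of all RUNX1 regions at 1 bp of overlap. Leaving out 1 library of each antibody gave ETS1 at the start of 1 to 2 members. Counting a peak of either library, a choice made after seeing the data, gave 2. The shorter windows and the stricter rules hold fewer peaks by construction; no other cause was tested. With a replicate block, the difference of 53.5 peaks per library had an exact permutation p of 0.5, its smallest possible value. The labels do not say that a number marks a shared culture, and the deviations of same-numbered libraries correlated at 0.0226 across 4953 shared regions. Total reads are not in the lists, so what depth limits was not tested.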

Other observations

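Among the strongest RUNX1 peaks, few were listed in 1 library only. Besides the peak at the start of CCR4, 4 peaks of library 2 with a −log10 q at least as high had no overlapping peak in library 1. One lay inside TXLNB on chromosome 6, with fold 11.4 and a pileup of 70. Others lay outside protein-coding genes, with folds of 17.2, 20.2 and 42.3. The nearest such genes were FBP1 at 29.5 kb, NPIPA8 at 324 kb and LOC105378947 at 22.7 kb. In the other direction, 2 of 10847 peaks of library 1 with at least that −log10 q had no counterpart in library 2. They lay inside SH2D7 with fold 9.20 and 11.3 kb from EBLN1 with fold 6.78.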
